A study of Drosophila melanogaster with 7 samples.

Results

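Expressed antisense RNA genes were examined in stage 5 embryos of *Drosophila melanogaster*, in 3 HP1-KD and 4 control RNA-seq libraries. They were taken as the genes whose FlyBase symbol begins with asRNA: and that had at least 10 counts in 3 or more of the 7 libraries, which gave 69 genes of 490 antisense RNA genes among the 17699 genes of the table. Each was set beside its partner, the protein-coding gene that it overlaps on the other strand. Where several coding genes did so, the one with the longest gene-body overlap was taken. HP1-KD embryos came from mothers in which a Gal4 driver (Bloomington stock 7063) expressed a hairpin against HP1 (stock 33400) in the female germ line, and control embryos are labelled with stock 36303. HP1 depletion was partial by the study's description, most HP1-KD embryos did not develop to genome activation, and the HP1-KD embryos carry an inversion on chromosome 2L, so HP1 loss, selection of embryos and line background cannot be told apart. For the HP1-KD samples, title and genotype give the knockdown while their tissue field reads wild type, and the title and genotype were followed. No source used here states that the libraries came from separate parents or collections, so p-values measure the spread between these libraries.

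A natural antisense RNA is transcribed from the strand opposite to another gene and can therefore be complementary to that gene's transcript. When both RNAs are present in a cell they can pair, and in flies long double-stranded RNA is cut by Dicer-2 into endogenous siRNAs that are loaded on Argonaute2. Transcription of one strand can also interfere with transcription of the other, and many antisense RNAs have no known function.

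The libraries held 8678092 to 16983585.5 counts in HP1-KD and 10927292.5 to 14374654.5 counts in control embryos. Ribosomal RNA took 37.3% to 80.7% of the counts in HP1-KD and 15.3% to 47.2% in control libraries, which left 3272009.5 to 5443432 and 7324415.5 to 11775952 other counts. A level of 3 counts corresponded to 0.276 to 0.463 CPM (counts scaled to the effective library size of edgeR's TMM method) in HP1-KD and to 0.129 to 0.209 CPM in control libraries. The targeted gene Su(var)2-5, which encodes HP1, had 81.4, 98.97 and 82.4 CPM in HP1-KD, against 189, 217, 275 and 230 CPM in control libraries (log2 fold change −1.38, edgeR adjusted p = 0.00231). A pair of libraries stood apart from the rest. HP1-KD replicate 1 held 114 CPM of the yolk protein gene Yp1, against at most 2.11 CPM in any other library, and a list of 6 follicle cell and ovary genes summed to 319 CPM there, 3.95 and 0.574 CPM in the other HP1-KD libraries and 0.14 to 0.386 CPM in control libraries. The sum in HP1-KD replicate 1 was almost all Yp1, Yp2 and Yp3, at 114, 84.9 and 117 CPM. Cp36, Cp38 and Vm26Aa had 1.31, 1.77 and 0.154 CPM there. Control replicate 3 held 73.7 CPM of the neuronal gene elav, against 6.25 to 20.0 CPM in the other 6 libraries. The list of later-embryo genes that includes elav summed to 74.4 CPM there, almost all of it elav. The next highest gene of that list was Obp44a at 0.301 CPM, so the rest of the list did not share the rise. Pole cell genes summed to 115.1 CPM in control replicate 3, against 306 to 452 CPM elsewhere. A list of 10 maternal RNAs cleared around genome activation was low there too, at 1299 CPM, against 2929 to 4112 CPM elsewhere. The part of these libraries in the results was not tested, and counts over the antisense RNAs, and the values that leaving out 1 of these libraries moved most, are given without them.

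The antisense RNAs were rare transcripts. Mean levels over the 7 libraries lay between 0.42 and 5.56 CPM with a median of 1.14 CPM, and the counts of a gene summed over the libraries lay between 47 and 680. The rule on counts was met mostly in control libraries, where 52 genes reached 10 counts in all 4 libraries. In HP1-KD libraries, 33 of the 69 genes reached 10 counts in no library and 13 in all 3. Only 22 genes reached 10 counts in at least 2 libraries of both conditions. Just inside the rule were 14 genes with exactly 3 libraries at 10 counts, such as asRNA:CR43463 with 0, 7.5 and 0 counts in HP1-KD and 22, 7, 37.5 and 19 in control libraries. Just outside were 17 genes with 2 such libraries, such as asRNA:CR43425 at the unc-13 locus with 3, 7 and 2 counts in HP1-KD and 6, 7.5, 53.5 and 28.5 in control libraries. A further 128 antisense RNA genes had no count in any library. All 69 genes passed the expression filter of the test.

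Exon length of the 69 genes ranged from 371 to 7418 nt with a median of 1433 nt, and 23 genes had a single exon in the Ensembl annotation of dm6. The share of exon bases that also lay in an exon of the other strand was 4.34% to 100%, with a median of 67.7%. Exons of 63 genes overlapped coding sequence of the partner, those of 45 its 5′ UTR and those of 43 its 3′ UTR. The antisense gene lay inside its partner in 25 pairs, the genes were arranged head-to-head in 16 and tail-to-tail in 14, and the partner lay inside the antisense gene in 14. More than 1 coding gene lay on the other strand at 16 of the genes, and 13 shared exon bases with a gene on their own strand, so that counts of these 13 may include reads of the neighbour. Per kb of exon in control libraries, the antisense RNA had a median of 29.4% of the level of its partner over the 63 genes whose partner had a count there, and it exceeded the partner at 23. In HP1-KD libraries the median was 13.6% over 58 genes, and 17 exceeded the partner. Pairs whose partner was in the table without a count, 4 in control and 9 in HP1-KD libraries, are left out. The medians and counts of the conditions thus cover different genes and are not a comparison.

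Whether reads of the partner could have been counted for the antisense gene was checked on genes that lie wholly inside exons of a gene on the other strand with at least 1000 counts. Of 41 such genes, 10 had no count in any library and 22 had at most 1% of the counts per base of the host. The cell cycle gene Roc1b had 0 counts inside exons of Cdc5 with 10003 counts, and asRNA:CR44891 had 0 counts inside exons of svr with 14330 counts. Reads of the host were thus not counted for the nested gene at the 10 loci without a count. Dropping reads that fall on both genes would also give 0 counts, so these loci cannot show that reads were assigned by strand. Above 1%, asRNA:CR44910 inside exons of Noc2 had 3.64% and asRNA:CR43463 inside exons of Pgant35A had 4.33% of the counts per base of the host. The source of their reads was not tested, and the setting of the counting program is not given in the sources used here.

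**Figure D1:**
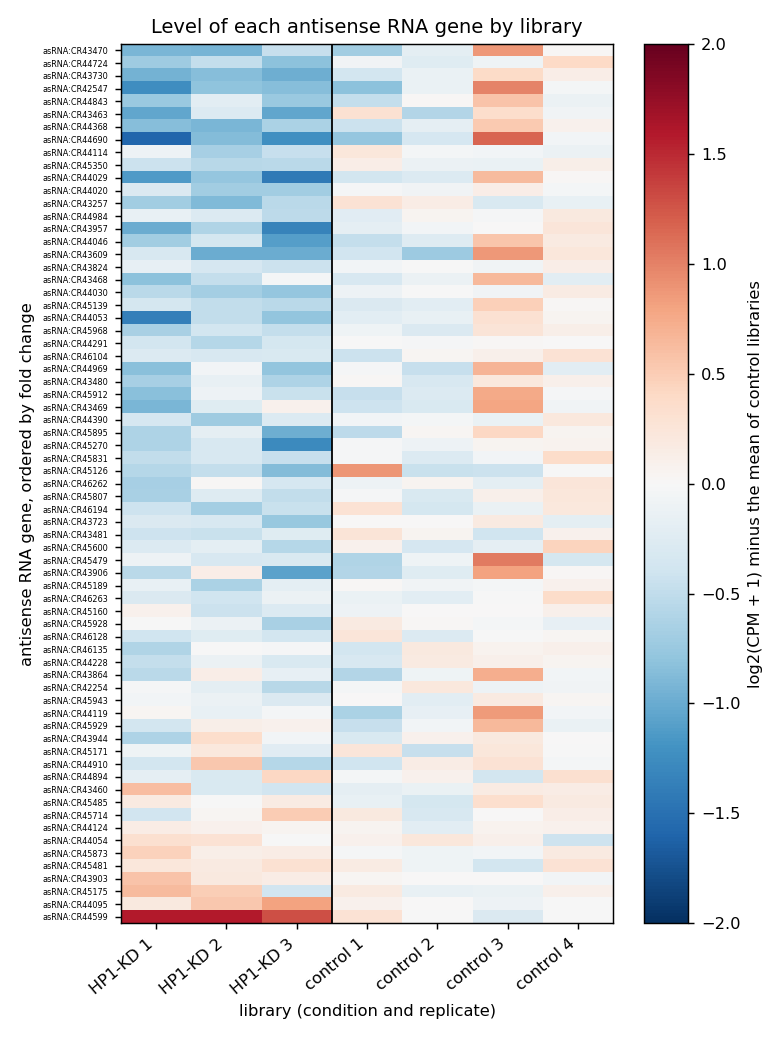
Level of each of the 69 antisense RNA genes (vertical axis, ordered by fold change) in the 3 HP1-KD and 4 control libraries (horizontal axis), as log2(CPM + 1) minus the mean of the control libraries. Blue cells prevail in the HP1-KD columns, and control replicate 3 has the highest level of 29 of the 69 genes, where 31.9% of all genes tested peak in it.

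Levels of the antisense RNAs were mostly lower in HP1-KD than in control embryos, with few genes past the threshold. The levels of the 69 genes summed to 79.9, 92.5 and 74.2 CPM in HP1-KD, against 110, 104, 164 and 129 CPM in control libraries, without overlap. At an edgeR adjusted p under 0.05, asRNA:CR44599 was higher, and asRNA:CR43730 and asRNA:CR44030 were lower in HP1-KD. That is 1.45% of the genes higher and 2.90% lower, where 3.70% of all 8008 genes tested were higher and 4.90% lower, 8.59% in either direction. With libraries scaled by total count alone, ribosomal RNA included, 23 of the 69 genes were lower and 0 higher, and the split over all genes was 1064 lower and 31 higher, against 392 lower and 296 higher with TMM. The fitted log2 fold change was below 0 for 58 of the 69 genes, against 52.2% of all genes tested. Its median was −0.86, against −0.03 over all genes tested, and it ranged from −2.20 to 2.29. At an unadjusted p under 0.05, 20 genes were lower and 2 higher, where the shares over all genes tested were 15.3% and 13.5%. The CPM of all HP1-KD libraries lay below that of all control libraries for 22 genes and above it for 3, where 15.1% and 15.3% of all genes tested did so. These counts describe genes that were selected on counts mostly met in control libraries and are no support for a direction. Among the 22 genes detected in both conditions the median was −0.30 and 14 were below 0.

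The summed level was highest in control replicate 3, which also had the highest level of 32 of the 69 genes among control libraries, where 39.4% of all genes tested peaked in it. Control replicate 4 was the highest control library for 19 of the 69 genes, where 11.9% of all genes tested peaked in it. Without control replicate 3 the median log2 fold change was −0.66, and 6 antisense RNA genes were lower and 1 higher by the edgeR test. Without HP1-KD replicate 1, the library with yolk protein transcripts, the median was −0.79, with 1 gene higher and 0 lower by the edgeR test, and 14 lower at an unadjusted p under 0.05. Among the antisense RNAs with the lowest fold changes, several had their highest level in control replicate 3. asRNA:CR43470, opposite CG14830, had 0.154, 0.138 and 0.574 CPM in HP1-KD, against 0.349, 0.898, 2.96 and 1.20 CPM in control libraries (log2 fold change −2.20, SE 0.88, edgeR adjusted p = 0.146), and without control replicate 3 it did not pass the filter of the test. asRNA:CR42547, opposite CG15674, had 0.309, 0.781 and 0.717 CPM in HP1-KD, against 0.768, 1.82, 5.20 and 2.02 CPM in control libraries (−2.02, SE 0.72, edgeR adjusted p = 0.115), and its log2 fold change was −1.34 without control replicate 3 and −2.29 without control replicate 1, where the edgeR adjusted p was 0.0484. Levels of both genes overlapped between the conditions. asRNA:CR44843, whose partner encodes the neuropeptide leucokinin, had 0, 0.459 and 0 CPM in HP1-KD, against 0.209, 0.713, 1.48 and 0.55 CPM in control libraries, and the partner Lk had no count in any library. asRNA:CR43470, asRNA:CR42547 and asRNA:CR44843 reached 10 counts in control libraries alone, so their direction is a description.

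**Figure D2:**
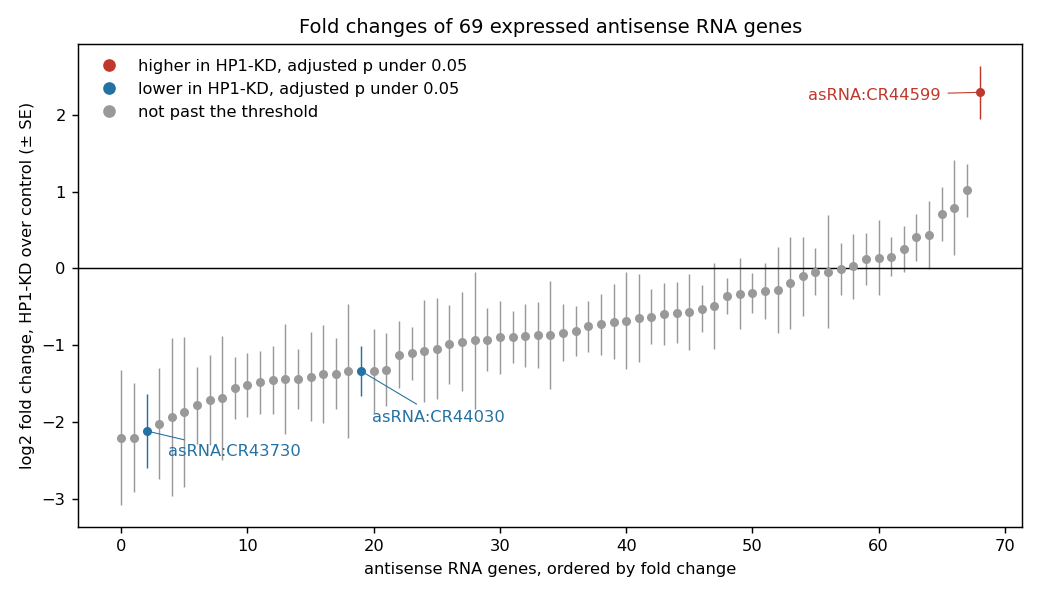
Log2 fold change of HP1-KD over control for the 69 antisense RNA genes (vertical axis, bars show the SE of the edgeR fit, 3 against 4 libraries), ordered by value along the horizontal axis. The red gene passed the threshold as higher and the blue ones as lower, and 58 genes lie below 0.

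asRNA:CR44599 was the antisense RNA that rose in HP1-KD embryos. It is a single exon of 582 nt on the minus strand of chromosome 2L at 13384822 to 13385403 (dm6), inside loqs, with 420 nt over exons of that gene, all of them in 3′ UTR sequence of at least 1 transcript and 246 nt also in coding sequence of another. The partner loqs encodes Loquacious, a double-stranded RNA-binding protein that works with the Dicer enzymes of flies. asRNA:CR44599 had 30, 50.5 and 25 counts in HP1-KD, against 18.5, 16.5, 12.5 and 17.5 counts in control libraries. This corresponded to 4.63, 4.64 and 3.59 CPM in HP1-KD, against 1.29, 0.872, 0.537 and 0.875 CPM in control libraries, and the lowest HP1-KD library was above the highest control library. The log2 fold change was 2.29 (SE 0.34, edgeR adjusted p = 0.00892), and it lay between 2.10 and 2.50 and past the threshold in each of the 7 fits that left out 1 library. With libraries scaled by their total count alone it was 1.24 with an edgeR adjusted p of 0.169, while the median of all genes tested was then −1.15.

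At the same locus loqs had 30.4, 29.1 and 27.3 CPM in HP1-KD, against 36.7, 34.8, 36.1 and 33.6 CPM in control libraries. The conditions did not overlap, but the difference did not pass the threshold (log2 fold change −0.29, SE 0.11, edgeR adjusted p = 0.130). Per kb of exon, asRNA:CR44599 reached 58.3% of the level of loqs in HP1-KD and 9.97% in control libraries. The log2 ratio of the antisense RNA to loqs, taken on log2(CPM + 1) values, was −2.48, −2.42 and −2.62 in HP1-KD, against −4.04, −4.26, −4.59 and −4.20 in control libraries. This ratio rose by 1.77 (SE 0.22, limma adjusted p = 0.00522 over all 1322 opposite-strand pairs). The position of this locus relative to the chromosome 2L inversion of the HP1-KD embryos was not analysed here.

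**Figure D3:**
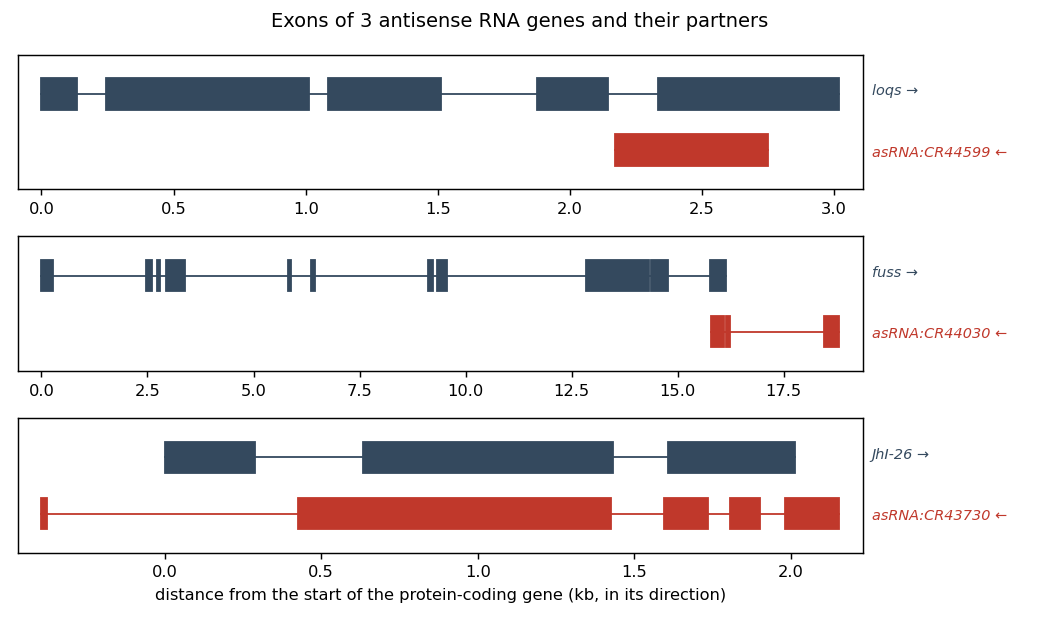
Exons (boxes) and introns (lines) of asRNA:CR44599, asRNA:CR44030 and asRNA:CR43730 (red, transcribed to the left) with their partners loqs, fuss and JhI-26 (dark, transcribed to the right), drawn as distance in kb from the start of the partner. asRNA:CR44599 lies inside loqs, asRNA:CR44030 meets fuss at its 3′ end, and asRNA:CR43730 spans JhI-26.

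asRNA:CR44030 and its partner were both lower in HP1-KD embryos. It has 3 exons and 753 nt on the plus strand of chromosome 4 at 959675 to 962692 and meets fuss tail-to-tail. The partner fuss encodes a protein of the Ski/Sno family of transcriptional regulators. asRNA:CR44030 had 0.771, 0.597 and 0.502 CPM in HP1-KD, against 1.40, 1.56, 1.44 and 1.87 CPM in control libraries, from 3.5 to 6.5 counts and 20 to 37.5 counts. Every HP1-KD library was below every control library (log2 fold change −1.33, SE 0.33, edgeR adjusted p = 0.0448). The gene reached 10 counts in 0 HP1-KD and 4 control libraries and so met the count rule only through the libraries where it is high, which makes its direction a description. The call was close to the threshold and held in 2 of the 7 fits that left out 1 library, those without control replicate 1 and without control replicate 3, with adjusted p between 0.0333 and 0.165 over the 7. It was lost, at 0.121, without HP1-KD replicate 1.

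The partner fuss, which the count rule did not use, fell. It had 1.77, 3.35 and 1.87 CPM in HP1-KD, against 20.0, 16.2, 12.6 and 18.7 CPM in control libraries (log2 fold change −2.81, SE 0.29, edgeR adjusted p = 0.00189), and the call held in all 7 fits that left out 1 library. The log2 ratio of asRNA:CR44030 to fuss was −0.65, −1.45 and −0.93 in HP1-KD, against −3.13, −2.75, −2.48 and −2.78 in control libraries. It was higher by 1.78 in HP1-KD (SE 0.28, limma adjusted p = 0.00852), with adjusted p of 0.0613 and 0.0632 without HP1-KD replicate 1 or replicate 3. Per kb of exon the antisense RNA was at 132% of fuss in HP1-KD and at 45.9% in control libraries.

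asRNA:CR43730 was the other antisense RNA that was lower past the threshold. It has 5 exons and 1433 nt on the minus strand of chromosome 2R at 16288927 to 16291474 and spans JhI-26, a juvenile hormone-inducible gene, as well as sequence of CG30100 and CG42372. It had 1.5, 3.5 and 1.5 counts in HP1-KD, against 12, 22, 49 and 32 counts in control libraries, that is 0.231, 0.322 and 0.215 CPM against 0.838, 1.16, 2.10 and 1.60 CPM. No HP1-KD library reached the lowest control library (log2 fold change −2.11, SE 0.48, edgeR adjusted p = 0.0370). Like asRNA:CR44030, it reached 10 counts in control libraries alone, so its direction is likewise a description. The ratio of pooled levels was 0.178 with a 95% counting interval of 0.059 to 0.368. The call held in 2 of the 7 fits that left out 1 library, those without control replicate 1 and without control replicate 3, and the adjusted p was 0.131 without HP1-KD replicate 1. JhI-26 had 1.23, 1.38 and 0.861 CPM in HP1-KD, against 1.40, 2.85, 1.20 and 1.72 CPM in control libraries, with overlap (log2 fold change −0.61, edgeR adjusted p = 0.347).

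**Figure D4:**
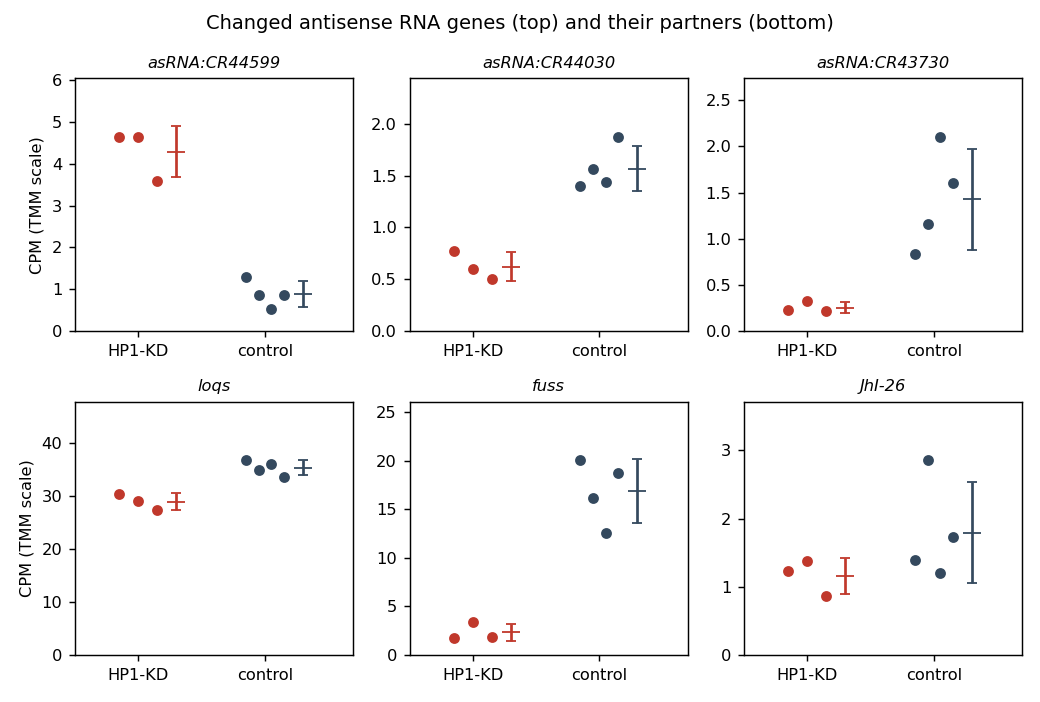
CPM in each of 3 HP1-KD libraries (red) and 4 control libraries (dark) for asRNA:CR44599, asRNA:CR44030 and asRNA:CR43730 in the upper panels and for loqs, fuss and JhI-26 in the lower panels, with the mean and SD beside the points. The conditions overlap only for JhI-26.

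The 4 antisense RNA genes of chromosome 4, the small chromosome that is largely bound by HP1, all had lower levels in HP1-KD without overlap, with a median log2 fold change of −1.39. Of the 80 chromosome 4 genes tested, 93.8% had a fold change below 0 and 30.0% were lower at an adjusted p under 0.05. Beside asRNA:CR44030, the antisense RNA genes there were asRNA:CR44029, asRNA:CR45126 and asRNA:CR43957, of which the last was singled out after its values were seen. A level of 10 counts was reached in 0 HP1-KD libraries by asRNA:CR44030 and in 1 by asRNA:CR43957. It was reached in 2 by asRNA:CR44029 and in 3 by asRNA:CR45126. The selection on counts of control libraries applies to these genes too. How many chromosome 4 genes lacked overlap is not given here, so the lack of overlap is a description. asRNA:CR44029, a single exon of 5379 nt inside unc-13, had 1.62, 2.34 and 1.15 CPM in HP1-KD, against 3.42, 3.73, 7.86 and 4.82 CPM in control libraries (−1.52, SE 0.41, edgeR adjusted p = 0.0624). It passed the edgeR threshold without control replicate 3 (−1.19, adjusted p = 0.0432) and without control replicate 1 (−1.65, adjusted p = 0.0455). Its partner unc-13, which encodes a priming factor of synaptic vesicles, also fell, with 72.5, 69.7 and 61.3 CPM in HP1-KD, against 233, 164, 140 and 205 CPM in control libraries (−1.45, SE 0.19, edgeR adjusted p = 0.00501). The ratio of both differed by 0.31 on the log2 scale with overlap (limma adjusted p = 0.628).

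asRNA:CR43957 lies head-to-head with ci, the transcription factor of Hedgehog signalling. It had 1.08, 1.75 and 0.646 CPM in HP1-KD, against 2.65, 2.99, 3.20 and 3.90 CPM in control libraries (log2 fold change −1.44, edgeR adjusted p = 0.0608, and 0.0436 without control replicate 3), and ci itself had 40.3, 68.7 and 59.8 CPM in HP1-KD, against 46.1, 129, 449 and 191 CPM in control libraries, highest in control replicate 3. Unlike ci, the antisense RNA did not overlap between conditions. asRNA:CR45126, tail-to-tail with the TFIID subunit gene Taf3, had 3.93, 4.27 and 3.01 CPM in HP1-KD, against 12.5, 4.39, 4.40 and 6.25 CPM in control libraries (−0.86, edgeR adjusted p = 0.219). The conditions touched closely at 4.27 CPM in HP1-KD and 4.39 CPM in control libraries.

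On the other chromosomes the median log2 fold change of the antisense RNA genes was −1.05 for 11 genes on 2L, −1.33 for 15 on 2R, −0.78 for 14 on 3L, −0.57 for 12 on 3R and −0.19 for 13 on X. All 15 genes of 2R had a fold change below 0 and 10 of them lay below control libraries without overlap, where 56.6% and 18.2% of all 1600 genes tested on 2R did so, and the selection on counts of control libraries applies to them too. By arrangement the medians were −0.63 for genes inside their partner, −0.74 for head-to-head pairs, −0.91 for tail-to-tail pairs and −0.94 for genes that contain their partner. Differences between these groups were not tested.

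Both genes passed the filter in 45 of the 67 pairs whose partner was in the table. The 44 distinct partners had a median log2 fold change of −0.04. At an edgeR adjusted p under 0.05, 0 were higher (4 at an unadjusted p under 0.05, and 3 by DESeq2 with adjustment) and 3 were lower, against 3.70% and 4.90% of all genes tested by edgeR and 8.78% higher by DESeq2. The lower ones were fuss, unc-13 and uex, a gene of the CNNM family of magnesium transporters. In 22 pairs both fold changes were below 0, in 16 the antisense RNA was below and the partner above 0, in 4 both were above 0, and in 3 the antisense RNA was above and the partner below 0. Across the 45 pairs, which share the 7 libraries, Pearson's r of the fold changes was 0.19 and Spearman's rho 0.24, given as a description. The log2 ratio of antisense RNA to partner changed in 6 pairs by limma, 2 higher and 4 lower in HP1-KD, where 7.49% of all 1322 opposite-strand pairs and 7.28% of those without these 45 changed. It did not overlap between conditions in 9 pairs, where 28.4% of all such pairs did not, and was lower in 33, with a median of −0.35, against −0.02 over all such pairs. As the antisense RNAs were selected on counts mostly met in control libraries, these counts are a description and no support for a direction. Without HP1-KD replicate 1 the ratio changed in 1 pair, that of asRNA:CR44599 and loqs, and without control replicate 3 in 8.

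The 4 pairs whose ratio fell were those of asRNA:CR45270 with Dhit, asRNA:CR45189 with zfh1, asRNA:CR46194 with SmD3 and asRNA:CR44690 with Cyp4d2. asRNA:CR45270, tail-to-tail with the RGS protein gene Dhit, had 2.39, 3.17 and 1.15 CPM in HP1-KD, against 4.12, 3.86, 4.44 and 4.47 CPM in control libraries. Dhit was higher in every HP1-KD library, with 12.2, 9.79 and 8.97 CPM in HP1-KD, against 5.03, 6.82, 3.11 and 5.47 CPM in control libraries. Neither gene overlapped between conditions and neither passed the edgeR threshold (adjusted p = 0.131 for the antisense RNA and 0.0674 for Dhit, or 0.0346 for Dhit without control replicate 3), while their log2 ratio fell by 1.66 (SE 0.32, limma adjusted p = 0.0236). It had a limma adjusted p of 0.117 without HP1-KD replicate 1, 0.137 without HP1-KD replicate 3 and 0.0735 without control replicate 4.

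asRNA:CR45189 lies inside zfh1, which encodes a zinc finger homeodomain factor of the mesoderm. It had 1.23, 0.597 and 1.15 CPM in HP1-KD, against 1.50, 1.35, 1.40 and 1.62 CPM in control libraries, and zfh1 had 12.5, 11.7 and 19.9 CPM in HP1-KD, against 10.7, 5.28, 8.18 and 7.37 CPM in control libraries. The antisense RNA was thus lower and zfh1 higher in every HP1-KD library, neither past the edgeR threshold (adjusted p = 0.278 and 0.0897), and the log2 ratio fell by 1.14 (SE 0.28, limma adjusted p = 0.0448), with an adjusted p of 0.101 without HP1-KD replicate 1. The ratio call held without control replicate 1 and without control replicate 3, but in no other fit that left out 1 library. With a pseudocount of 0.25 CPM its limma adjusted p was 0.0520. asRNA:CR45189 too reached 10 counts in control libraries alone. asRNA:CR46194, tail-to-tail with the spliceosomal protein gene SmD3, had 1.85, 1.38 and 1.79 CPM in HP1-KD, against 3.67, 1.98, 2.47 and 3.40 CPM in control libraries. SmD3 had 22.4, 13.3 and 18.9 CPM in HP1-KD, against 17.2, 11.1, 11.9 and 10.6 CPM in control libraries, with overlap. The log2 ratio of both fell by 1.00 (SE 0.25, limma adjusted p = 0.0451, and 0.168 without HP1-KD replicate 1). This call likewise held only without control replicate 1 and without control replicate 3 when 1 library was left out. With a pseudocount of 0.25 CPM its limma adjusted p was 0.0520. Of the 2149 nt of exon of asRNA:CR46194, 544 nt lie in a gene on its own strand.

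asRNA:CR44690 contains the cytochrome P450 gene Cyp4d2 and had the highest mean level of the 69 genes in control libraries. It had 1.47, 3.03 and 2.15 CPM in HP1-KD, against 3.32, 4.81, 15.5 and 6.12 CPM in control libraries, with the highest value in control replicate 3, and Cyp4d2 was highest there too at 3.59 CPM, against 0.209 to 1.03 CPM in the other 6 libraries. The log2 fold change of the antisense RNA was −1.71 (SE 0.58, edgeR adjusted p = 0.102) and −1.06 without control replicate 3 (adjusted p = 0.0675). The log2 ratio fell by 1.06 (SE 0.27, limma adjusted p = 0.0466, and 0.168 without HP1-KD replicate 1). Of the fits that left out 1 library, it passed only in that without control replicate 3 (limma adjusted p = 0.0255). With a pseudocount of 0.25 CPM the limma adjusted p was 0.0956, and with ribosomal RNA genes left out it was 0.0794.

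**Figure D5:**
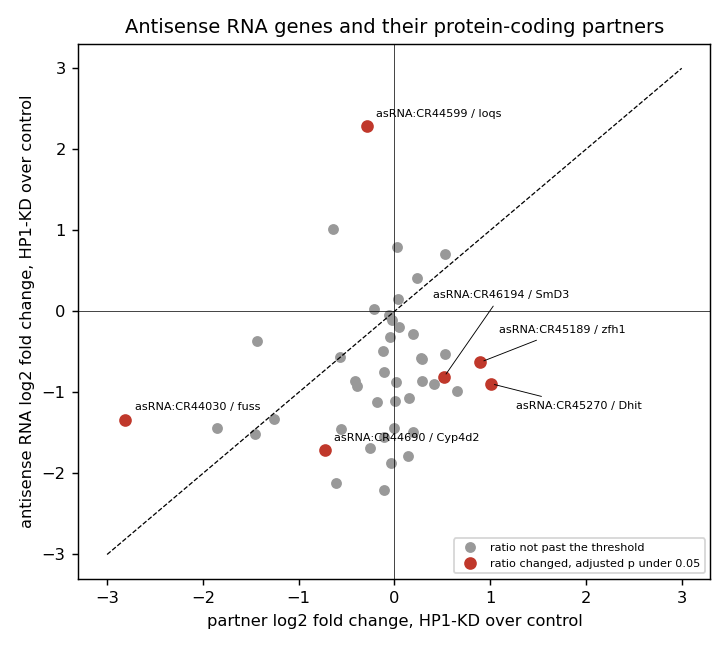
Log2 fold change of HP1-KD over control for the antisense RNA (vertical axis) and its protein-coding partner (horizontal axis) in 45 pairs, with equal changes on the dashed line. Red points mark the 6 pairs whose ratio changed, of which those of loqs and fuss lie above the line and the other 4 below it.

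A few other antisense RNAs had higher levels in HP1-KD. asRNA:CR44095 contains Cys, a gene of a cystatin-like protease inhibitor, and had 1.00, 1.56 and 2.08 CPM in HP1-KD, against 0.873, 0.766, 0.644 and 0.75 CPM in control libraries. The conditions did not overlap, and the log2 fold change of 1.02 did not pass the threshold (SE 0.35, edgeR adjusted p = 0.102). Cys was far more abundant, at 46.8, 64.4 and 35.9 CPM in HP1-KD and 52.8, 82.8, 103 and 67.4 CPM in control libraries, so that per kb of exon the antisense RNA was at 1.97% of Cys in HP1-KD and at 0.618% in control libraries, the lowest share of the 63 genes compared there. asRNA:CR43903, inside CG10254, had 1.31, 0.781 and 0.717 CPM in HP1-KD, against 0.593, 0.555, 0.558 and 0.50 CPM in control libraries (0.71, edgeR adjusted p = 0.228). asRNA:CR45175, inside CG5567, and asRNA:CR45481, head-to-head with CG6414, had log2 fold changes of 0.79 and 0.43 and overlapped between conditions.

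Of the most abundant antisense RNAs, several had a partner that was hardly transcribed at this stage. asRNA:CR45171 had 3.16, 4.14 and 2.80 CPM in HP1-KD, against 4.22, 2.22, 4.16 and 3.40 CPM in control libraries, whereas its partner, the cuticle protein gene Cpr67Fb, had no count in any library. asRNA:CR44228, which lies inside CG11768 and covers 1482 nt of its coding sequence, had 4.09, 5.56 and 4.73 CPM in HP1-KD, against 4.64, 7.001, 6.59 and 6.32 CPM in control libraries, while CG11768 had at most 1.00 CPM in any library. Both antisense RNAs overlapped between conditions, with log2 fold changes of −0.04 and −0.36 (edgeR adjusted p = 0.934 and 0.333). asRNA:CR44894, which contains CG43902, and asRNA:CR44054, tail-to-tail with CG15199, averaged 3.23 ± 1.19 and 3.26 ± 0.527 CPM in HP1-KD (SD, n = 3), against 3.25 ± 0.828 and 2.74 ± 0.665 CPM in control libraries (SD, n = 4). Exons of asRNA:CR44894 share no base with exons of CG43902, its partner by gene-body overlap. The coding genes RhoU and CG12645 also lie on the other strand there. Of its 3114 nt of exon, 1664 nt lie in exons of the other strand, so the level of CG43902 does not describe all genes it faces. On their own strand, asRNA:CR44894 and asRNA:CR44054 share 317 nt and 82 nt of exon with another gene. asRNA:CR43906, head-to-head with CG13377, averaged 2.05 ± 1.28 CPM in HP1-KD and 3.32 ± 1.91 CPM in control libraries, with its highest value of 6.05 CPM in control replicate 3 and a log2 fold change of −0.65, or −0.17 without that library and −1.29 without HP1-KD replicate 2.

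By contrast, asRNA:CR42254 faced a well expressed partner. It lies head-to-head with BEAF-32, which encodes a boundary element-binding protein, and had 3.78, 3.26 and 2.30 CPM in HP1-KD, against 3.70, 4.62, 3.54 and 3.62 CPM in control libraries. BEAF-32 had 62.5, 57.7 and 55.1 CPM in HP1-KD, against 63.3, 64.7, 49.8 and 63.7 CPM in control libraries. Both overlapped between conditions, with log2 fold changes of −0.32 and −0.05. asRNA:CR44724, inside Arms, was low in each condition, with 0.154, 0.368 and 0.0717 CPM in HP1-KD, against 0.803, 0.608, 0.794 and 1.50 CPM in control libraries. It did not overlap (log2 fold change −2.20, SE 0.71, edgeR adjusted p = 0.0910), with a fold change of −3.51 without HP1-KD replicate 2 and −1.71 without HP1-KD replicate 3, while Arms had a log2 fold change of −0.11. asRNA:CR44724 had 1, 4 and 0.5 counts in HP1-KD and reached 10 counts in control libraries alone. Its direction and lack of overlap are therefore a description.

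Genes that act on double-stranded or unstable nuclear RNA were examined beside the antisense RNAs. Of the 7 genes of a list for double-stranded RNA and siRNA (Dcr-2, AGO2, loqs, r2d2, Ars2, Hen1 and blanks), 0 passed the edgeR threshold and 0 that of DESeq2, with a median log2 fold change of −0.08 and 1 gene lower at an unadjusted edgeR p under 0.05. The list summed to 597, 597 and 540 CPM in HP1-KD, against 580, 546, 569 and 596 CPM in control libraries, with overlap. AGO2, the slicer of the siRNA pathway, had 177, 173 and 164 CPM in HP1-KD, against 134, 133, 181 and 152 CPM in control libraries. Of 13 genes of the nuclear exosome and its cofactors, which degrade many unstable nuclear RNAs, 0 passed by edgeR, by DESeq2 or at an unadjusted p under 0.05, with a median of −0.07. The summed levels of a list of stage 5 zygotic genes and of a list of early zygotic activators differed between conditions in opposite directions. The 15 stage 5 zygotic genes summed to 2102, 2694 and 1746 CPM in HP1-KD, against 3153, 3248, 3304 and 3122 CPM in control libraries, a sum mostly of slam and Sry-alpha. Their median log2 fold change was −0.56 with 0 past the edgeR threshold (8 lower at an unadjusted p under 0.05, where 15.3% of all genes were, and 5 lower by DESeq2 with adjustment, where 9.80% were), and nullo was at 0.32. The 6 early zygotic activators summed to 1576, 1563 and 1660 CPM in HP1-KD, against 1313, 952, 1492 and 692 CPM in control libraries. Their median was 0.18 with 0 past the edgeR threshold (1 higher and 1 lower at an unadjusted p under 0.05, and the same counts by DESeq2 with adjustment). The activators went both ways, with log2 fold changes of 1.20 for nej, 0.81 for fs(1)h and 0.55 for zld. Those of Trl, Clamp and opa were −0.41, −0.20 and −0.70. Neither sum overlapped between conditions, and the part of both lists in the levels of the antisense RNAs was not tested.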

How the data were processed

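Total RNA of hand-staged stage 5 embryos was sequenced with a stranded kit. The table deposited by the authors holds estimated counts for each FlyBase gene, unnormalized and in 0.5 steps. The submitters' processing notes name STAR and dm6, and the counting program and its strand setting are not given in the sources used here. All 7 columns matched samples by name. Positions came from the Ensembl 115 annotation of dm6, which held 17561 of the 17699 identifiers. The partners CG3164 and Had1 were not matched to the table, and their counts are not analysed here.

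Counts were rounded and filtered with filterByExpr, which left 8008 genes. HP1-KD was compared with control by the quasi-likelihood test of edgeR 4.0.16 with TMM scaling and condition as the only term, and p-values were adjusted by Benjamini-Hochberg over all genes, with a threshold of 0.05. The SE is the size of the fold change divided by the square root of F. Ratios of opposite-strand pairs were tested with limma 3.58.1 on log2(CPM + 1). The edgeR and limma fits were tested on simulated data. Genes named are those past a threshold, the 10 most abundant, the 5 with the highest and the 5 with the lowest fold change, and their partners. The remaining chromosome 4 gene, genes at the edge of the count rule and genes of the lists are also named. Alternatives covered scaling, filter, DESeq2 1.42.0, rounding, a robust fit, the pseudocount, ribosomal RNA, a replicate block and leaving out each library. The members and lists were chosen with earlier results of these data known. Intervals and floors cover counting error only.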

Additional observations from a re-analysis of the deposited data

Results flagged for a closer look

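In 3 of 39 sets of control values examined, 1 library lay far from the other 3, and chance alone marks about 1 in 20 such sets. asRNA:CR42254 had 4.62 CPM in control replicate 2, with the next highest control library at 3.70 CPM. Its partner BEAF-32 had 49.8 CPM in control replicate 3, with the next lowest at 63.3 CPM. Taf3, the partner of asRNA:CR45126, had 113 CPM in control replicate 2, with the next lowest at 183 CPM.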

How the results depend on the processing

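asRNA:CR44599 kept its call in all fits except the replicate block and total count scaling, while the calls of asRNA:CR43730 and asRNA:CR44030 were lost under several. The number of all genes changed, 688, became 1488 with the DESeq2 Wald test, 439 with at least 10 counts in every library, 1095 with total count scaling, and 181 to 1212 when 1 library was left out. The number of antisense RNA genes lower, 2, became 8 with DESeq2, 0 with at least 10 counts in every library or without a filter, 23 with total count, 10 at an adjusted p under 0.1 and 0 to 6 when 1 library was left out. The number higher, 1, became 0 with total count. The median of −0.86 became −0.21 with at least 10 counts in every library, which kept few genes, −1.92 with total count, −0.30 for genes detected in both conditions and −0.96 to −0.66 when 1 library was left out, and the median minus that of all genes was −0.83 with TMM and −0.76 with total count. The 6 changed ratios became 3 with a pseudocount of 0.25 CPM and 1 to 8 when 1 library was left out. The 3 kept with that pseudocount were those with loqs, fuss and Dhit. Except where fewer genes or libraries entered, the cause was not tested.

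With a replicate block 96 genes changed (23 higher, 73 lower), with 0 antisense RNA genes higher and 0 lower and 0 ratios changed. Same-numbered libraries deviated together at r of 0.46, −0.11 and 0.06, where differently numbered ones lay between −0.45 and 0.33. Whether the same number marks a shared collection or batch is not settled by these values. Why calls were lost under the block was not tested.

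Signs turned with total count for asRNA:CR43903 (−0.54), asRNA:CR44054 (−0.85), asRNA:CR44095 (−0.092), asRNA:CR45175 (−0.22), asRNA:CR45481 (−0.74), CG10254 (−0.65), CG5567 (−1.03), zfh1 (−0.28), Dhit (−0.17) and SmD3 (−0.72), where the median of all genes was −1.15. Fold changes near 0 turned for asRNA:CR44894 (0.0025 with DESeq2 size factors, 0.12 with the replicate block, −0.34 to 0.19 when 1 library was left out) and CG5567 (−0.00085 with at least 10 counts in every library, −0.25 to 0.20 when 1 library was left out). They also turned when 1 library was left out for asRNA:CR45171 (−0.22 to 0.062) and Arms (−0.20 to 0.050). All 69 genes share exon bases with the other strand, so the alternative limited to genes without such bases gave no value. In HP1-KD libraries 33 genes reached 10 counts in none, and lower depth and lower level cannot be told apart in that count.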
